A study of Mus musculus with 12 samples.

Results

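The transcripts described here carry no gene name of their own in the count tables. They are listed under a predicted gene model number (Gm), a RIKEN clone number (Rik), the name of a bacterial artificial chromosome clone (RP23 or RP24) or the accession of a sequenced clone (AC or AL), and their level differed between double-knockout (dKO) and control thymocytes. A transcript was taken if its mean CPM (the library-scaled count, that is the raw count over the summed gene counts of the library on the usual CPM scale) differed at least 2-fold between the 3 dKO and the 3 control libraries of 1 cell population, if the higher group had a mean of 1 CPM or more, and if no library of either group overlapped the other group. Of 53656 gene rows, 29525 had such a name and 239 of them met these criteria. By name, 205 of the 239 were RP23 or RP24 clone names, 16 were AC or AL accessions, 13 were Gm models and 5 were Rik clones.

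The libraries came from mouse thymus, from immature CD4 thymocytes (ImCD4: CD44 low, CD4+CD8-, H2-Kb-, CD69+) and immature CD8 thymocytes (ImCD8: CD44 low, CD8+CD4-, TCRb+, CD69+), with 3 control and 3 dKO libraries of each. All 4 groups carry Zfp148 fl/fl and Zfp281 fl/fl, alleles from which Cre can remove both zinc finger genes, and Cd4-Cre, which is active from the CD4+CD8+ stage of T cell development onward, distinguishes dKO from control. The ImCD4 controls are labelled Cre negative, so an effect of Cre itself cannot be told apart from the loss of the zinc finger genes. The ImCD8 libraries have a genotype label opposite to their title (those titled Ctrl are marked Cd4-Cre+), and every group and direction here follows the title. Ages, and whether libraries came from separate animals, are not in the labels, so a p-value here reflects how far the libraries of a group spread, and that spread may be technical.

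RP23 and RP24 are libraries of mouse genomic DNA in bacterial artificial chromosomes, and a name such as RP23-302C16.2 gives a locus on that clone which annotators had recorded without assigning a gene name. Many transcripts of these name classes are long non-coding RNAs, small RNAs or pseudogenes, which are often spliced poorly, expressed in few cell types and present at low levels. Zfp148 and Zfp281 are related Krüppel-type zinc finger proteins that bind G-rich DNA and can repress or activate transcription, and Zfp281 has been linked to chromatin-modifying complexes. Loci named only by a clone or accession had no position or sequence in the references used here, so no function is given for them below.

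Libraries held 7315833 to 10943143 gene counts. Zfp148 averaged 186 ± 3.70 CPM in control and 67.4 ± 3.61 in dKO ImCD4 (SD, n = 3 here and throughout), and 162 ± 3.63 against 53.4 ± 10.2 in ImCD8. Zfp281 averaged 501 ± 67.0 against 18.9 ± 2.57 CPM in ImCD4 and 117 ± 9.71 against 12.4 ± 2.30 in ImCD8. Both therefore fell with the titles in both populations (edgeR quasi-likelihood adjusted p from 5.47e-12 to 4.43e-08). The 4 libraries numbered 3, 1 in each group, stood apart on the third principal component (5.17% of the variance), with positive scores against negative scores in the other 8, and counts of calls are given below with and without them. Cd4 was at 1127 CPM or more in every ImCD4 library and at 10.7 or less in every ImCD8 library, and Cd8b1 at 146 or less and 1877 or more, respectively. Of the markers of other cells, Ms4a1, Ncr1, Foxn1 and Pf4 stayed at or below 0.229 CPM in every library, whereas Ighm reached 439.9 CPM, Ly75 102 CPM and Car2 60.9 CPM in dKO ImCD8. 3 of the 5 lists of other cell types separated dKO from control in a population by their summed CPM. The 5 NK and gamma-delta genes were at 30.1 to 33.0 CPM in control and 197 to 303 in dKO ImCD4, in dKO mostly from Sox13, and at no more than 15.8 and no less than 18.2 in ImCD8. The 5 myeloid and dendritic genes were at 109 to 125 and 139.9 to 152 in ImCD4, and the 5 thymic epithelial genes at 124 to 127 and 131 to 134 in ImCD8. The sums of the 5 B cell genes overlapped (73.5 to 97.1 and 64.1 to 92.4 CPM in ImCD4, 309 to 391 and 363 to 475 in ImCD8), although Cd79b alone did not in ImCD8 (8.19 to 11.3 and 20.2 to 32.5). Those of the 5 erythroid and platelet genes overlapped as well (5.60 to 17.2 and 16.2 to 24.9 CPM in ImCD4, 42.7 to 48.8 and 48.0 to 76.8 in ImCD8). Whether any of these has a part in the differences below was not tested, and in sorted bulk populations fewer cells of a type and less RNA per cell cannot be told apart.

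The positions of only 18 of the 239 transcripts, the 13 Gm models and 5 Rik clones, could be taken from the GENCODE M21 annotation of GRCm38 (mm10), and promoter sequence (250 bases before to 50 after the start in RefSeq's table for GRCm38.p6) from 4 of these. Promoters of the pair below are shown because their nearest named gene, Kmt2c or Zfp652, was lower in dKO together with the transcript, and because they differ in base composition and in the G-rich element. Capitals mark CCCTCCCC and its reverse complement GGGGAGGG, the element searched on both strands; the rest is in lower case, 5′ to 3′ on the + strand of GRCm38.p6. The first is from chr5:25499547-25499846 and the second from chr11:95723336-95723635.

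4831440E17Rik: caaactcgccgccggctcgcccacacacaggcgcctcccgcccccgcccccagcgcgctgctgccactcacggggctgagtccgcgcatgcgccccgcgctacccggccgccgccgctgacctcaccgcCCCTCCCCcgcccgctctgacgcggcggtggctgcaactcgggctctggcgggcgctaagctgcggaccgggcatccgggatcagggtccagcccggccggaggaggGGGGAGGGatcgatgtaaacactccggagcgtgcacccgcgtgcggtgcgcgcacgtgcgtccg
B130006D01Rik: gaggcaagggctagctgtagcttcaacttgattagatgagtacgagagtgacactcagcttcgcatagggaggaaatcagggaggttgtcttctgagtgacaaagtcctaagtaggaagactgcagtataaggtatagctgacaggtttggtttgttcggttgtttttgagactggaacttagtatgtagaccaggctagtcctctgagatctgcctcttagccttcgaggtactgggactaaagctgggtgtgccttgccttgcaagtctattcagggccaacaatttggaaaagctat

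The 4831440E17Rik promoter was 76.3% G or C and held the element on both strands, whereas the B130006D01Rik promoter was 46.7% G or C and did not hold it. The other 2 promoters, of A330069E16Rik and A930007I19Rik, were 66.0% and 73.7% G or C, without the element, against a median of 52.7% over all promoters. The element was thus in 1 of 4, beside 10.8% of all 32851 promoters of the table and 7.61% of the 12590 that belong to genes with such names. A match in these letters is a description and not a binding site.

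In ImCD4, 34 of the transcripts were higher and 156 lower in dKO, and in ImCD8 29 were higher and 41 lower. Of all 13114 gene rows that reached 1 CPM in a group of ImCD4, 1.34% met the same criteria upward and 3.27% downward. In ImCD8 the shares of 12949 rows were 1.10% upward and 1.78% downward. Because these criteria chose the transcripts, the counts describe the selection and are not a result. Among unnamed rows alone, 1.37% of 2487 met the criteria upward in ImCD4 and 6.27% downward, and among named rows 1.34% and 2.57% of 10627. The corresponding shares in ImCD8 were 1.25% and 1.76% of 2329 unnamed rows and 1.06% and 1.78% of 10620 named rows.

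Across the 2 populations, 21 transcripts met the criteria in both, 20 of them in the same direction (4 higher, 16 lower). 218 met them in 1 population. Several of the largest differences were shared, and others were near background in the population that did not choose the transcript, as the plot of both changes shows.

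**Figure D1:**
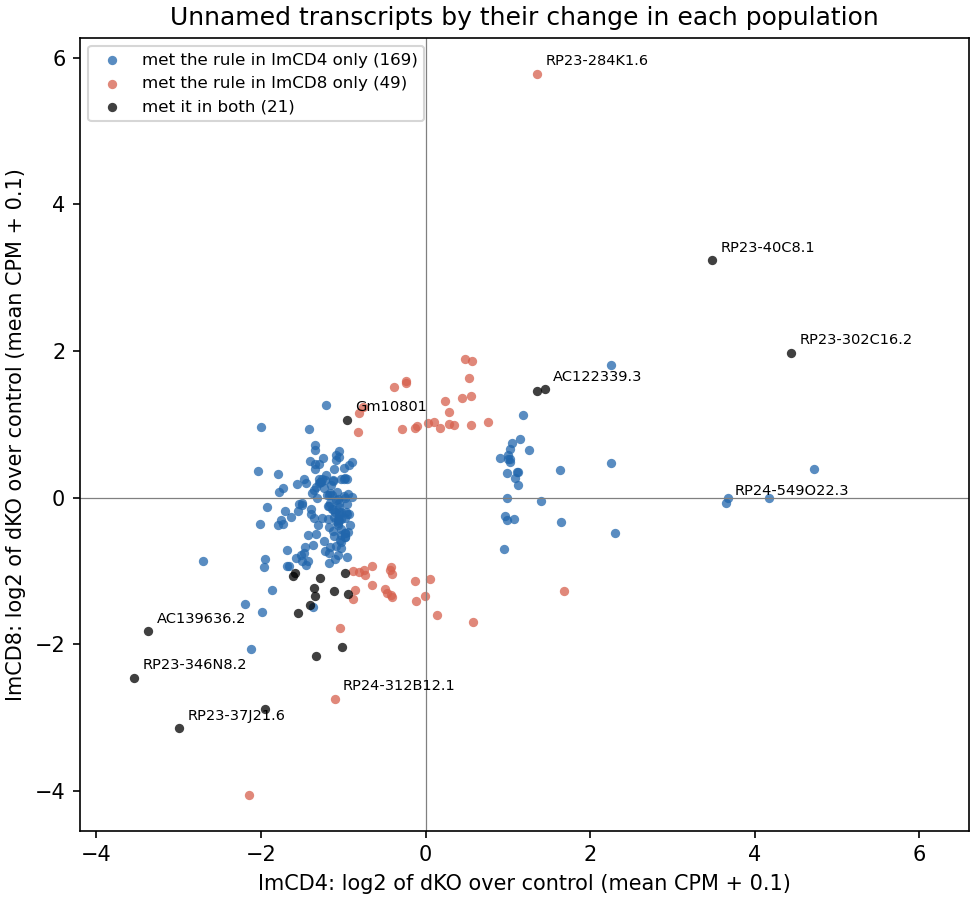
Each point is 1 of the 239 transcripts, placed by the log2 ratio of dKO over control mean CPM (plus 0.1) in ImCD4 (x axis) and ImCD8 (y axis), and coloured by the population in which it met the criteria. RP23-302C16.2, RP23-40C8.1 and AC122339.3 lie far up both axes and AC139636.2, RP23-346N8.2 and RP23-37J21.6 far down both, while RP23-284K1.6 is far up in ImCD8.

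The choice in 1 population used no library of the other, so each set was tested in the other population with edgeR's quasi-likelihood test, adjusted by Benjamini-Hochberg over all 13383 genes tested. Of the 34 transcripts higher in dKO ImCD4, 30 passed the filter on low counts and 3 rose in dKO ImCD8 (10%), where 2.61% of all genes tested were called higher and 3.53% lower. Of the 156 lower in dKO ImCD4, 127 passed and 13 fell in dKO ImCD8 (10.2%). In the other direction, 24 of the 29 higher in dKO ImCD8 passed and 3 rose in dKO ImCD4 (12.5%), where 7.26% of all genes were called higher and 6.18% lower. Of the 41 lower in dKO ImCD8, 35 passed and 13 fell in dKO ImCD4 (37.1%). No transcript was called in the opposite direction in any of the 4 sets.

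The medians in the other population were 0.46 (log2) for the 34, with 22 of 30 above 0 and 6 below, and -0.25 for the 156, with 83 of 127 below 0. They were 0.31 for the 29 higher in ImCD8, with 16 of 24 above 0, and -0.99 for the 41 lower there, with 31 of 35 below 0. Over all genes the median was 0.02 in ImCD4 and 0.01 in ImCD8. The counts depended on the libraries fitted. The 16 calls in ImCD8 became 8 when the 6 ImCD8 libraries were fitted alone, the fit in which no library of the choosing population shares in the estimate of the spread. They became 9 without control replicate 1, and 10 without control replicate 2, dKO replicate 1 or dKO replicate 2 of ImCD8. The 16 calls in ImCD4 became 10 without control ImCD4 replicate 1. Without the 4 libraries that stood apart they were 15 and 12.

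RP23-302C16.2 was the most abundant of the shared transcripts that were higher in dKO. In ImCD4 it was at 5.32, 6.86 and 5.78 CPM in the controls and at 139.9, 119 and 136 CPM in dKO, a 22-fold difference. In ImCD8 the controls had 9.20, 6.29 and 6.22 CPM and dKO 27.4, 27.7 and 31.0 CPM, a 3.96-fold difference. The controls of both populations were at about the same level, and the dKO libraries were far above them without overlap, with ImCD4 above ImCD8. As a transcript chosen in ImCD4, its log2 change in ImCD8 was 2.0 ± 0.14 (SE; adjusted p = 2.20e-07, edgeR), and as one chosen in ImCD8, its change in ImCD4 was 4.48 ± 0.14 (adjusted p = 4.06e-12). For every transcript that met the criteria in both populations, a p-value below comes from the same tests, set beside the choice in the other population. Such transcripts are grouped here because both populations met the criteria, so the values tested had a part in the grouping. Their p-values therefore describe each change beside its spread and are no independent support. The counts over each whole set, given above, do not have this limit.

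RP23-40C8.1 was near background in controls and of similar size in both dKO populations. Its ImCD4 controls had 0.967, 1.94 and 1.2 CPM and the dKO libraries 16.5, 17.1 and 15.1 CPM, 11.9-fold more. The ImCD8 controls had 1.46, 1.37 and 0.725 CPM and the dKO libraries 11, 13.6 and 11.5 CPM, 10.2-fold more. The log2 change was 3.38 ± 0.24 (adjusted p = 3.67e-07, edgeR) in ImCD8 and 3.58 ± 0.23 (adjusted p = 6.58e-08) in ImCD4. AC122339.3 also had about the same levels in both populations: 5.68, 5.48 and 5.56 CPM in control and 15.2, 15.1 and 16.1 in dKO ImCD4, and 4.71, 5.60 and 6.84 against 14.8, 17.6 and 16.0 in ImCD8. No dKO library came near a control library, and the change was 1.5 ± 0.15 on the log2 scale in ImCD8 (adjusted p = 1.41e-05, edgeR) and 1.49 ± 0.15 in ImCD4 (adjusted p = 1.08e-05). These 3 calls held in both populations in all 19 alternative fits. The fourth, RP23-104G24.2, was at 0.763 ± 0.167 and 2.11 ± 0.480 CPM in ImCD4 and 0.469 ± 0.414 and 1.46 ± 0.761 in ImCD8, and did not pass the test in either (adjusted p = 0.0566 and 0.119, edgeR).

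**Figure D2:**
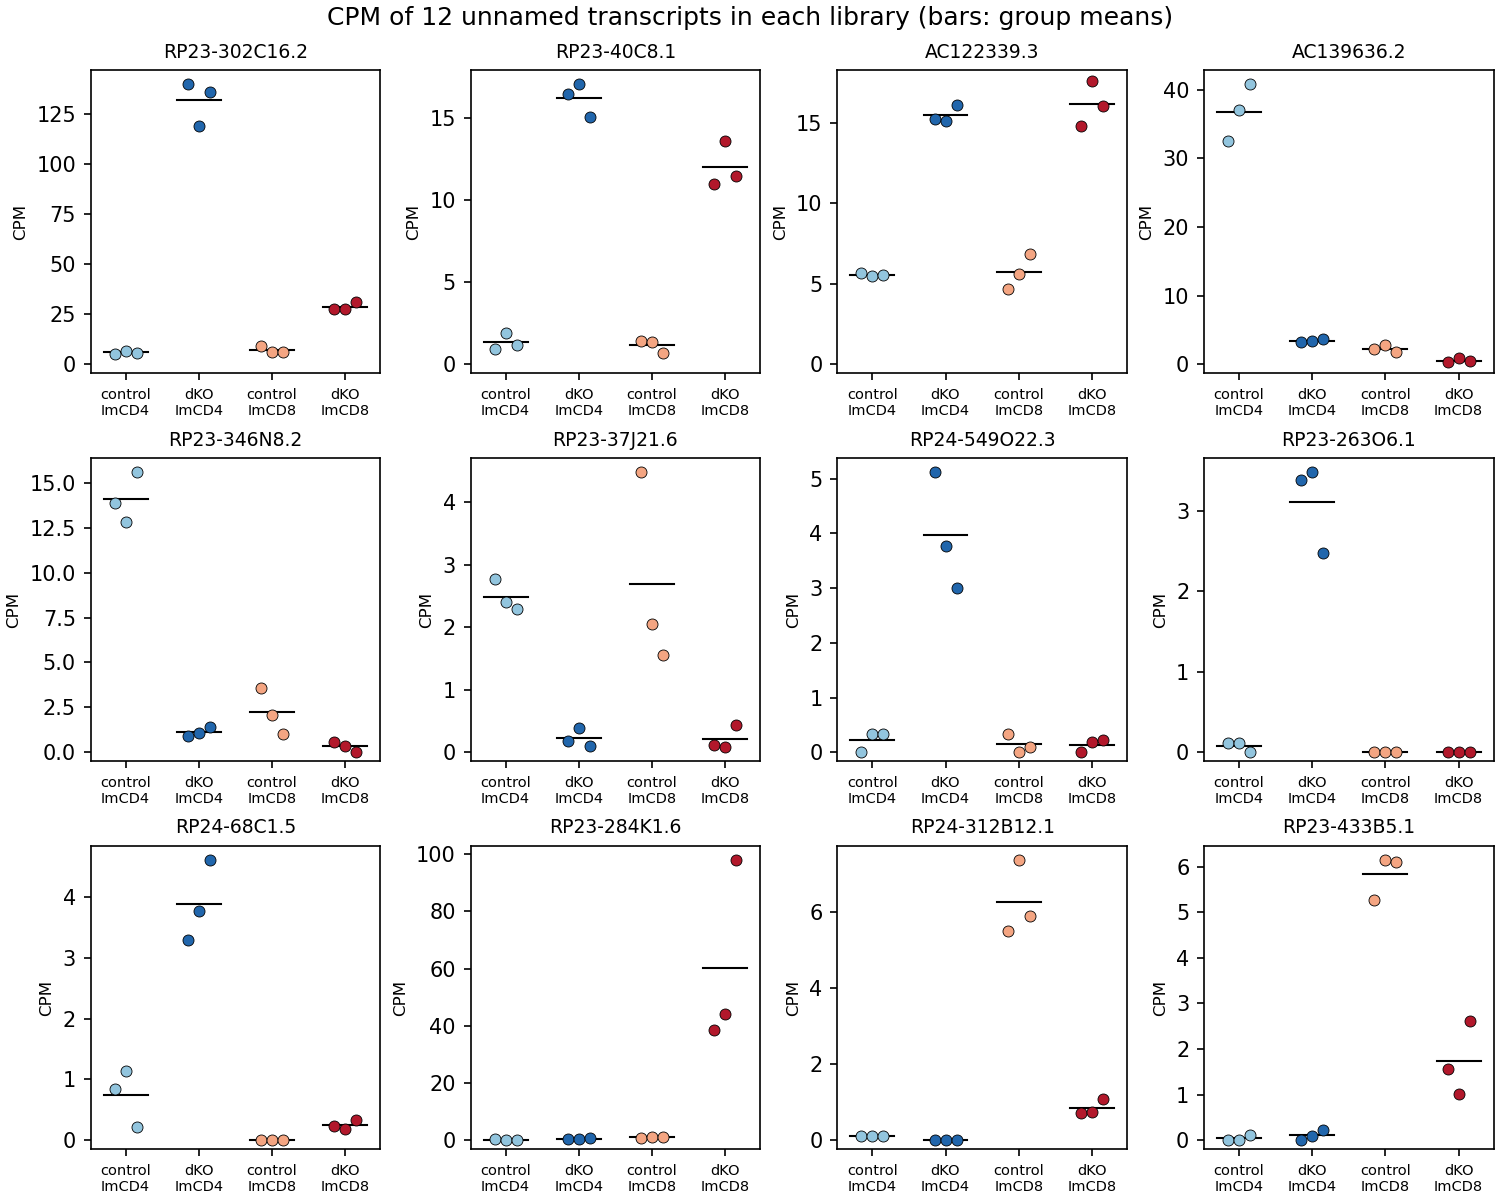
CPM of 12 unnamed transcripts in each of the 12 libraries, 1 panel per transcript with its own linear axis; points are libraries and bars group means. Control and dKO points do not overlap in the population or populations that chose each transcript, and the highest level belongs to dKO ImCD4 for RP23-302C16.2, control ImCD4 for AC139636.2 and RP23-346N8.2, and dKO ImCD8 for RP23-284K1.6.

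Among the 16 that were lower in both populations, AC139636.2 had the highest level. It was at 32.5, 37.0 and 40.8 CPM in control ImCD4 and 3.29, 3.48 and 3.65 in dKO ImCD4. In ImCD8 it was at 2.24, 2.87 and 1.76 CPM in control and 0.360, 0.929 and 0.435 in dKO. Every dKO ImCD4 library was thus still above every control ImCD8 library, and dKO was lower than control without overlap in both populations. Its change was -1.88 ± 0.33 in ImCD8 (adjusted p = 0.00228, edgeR) and -3.38 ± 0.18 in ImCD4 (adjusted p = 7.06e-09).

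RP23-346N8.2 was also highest in control ImCD4 and lowest in dKO ImCD8, but its dKO ImCD4 mean was below that of control ImCD8. Its control ImCD4 libraries were at 13.9, 12.8 and 15.6 CPM and dKO ImCD4 at 0.914, 1.06 and 1.39. In ImCD8 it was at 3.59, 2.05 and 1.04 CPM in control and 0.600, 0.371 and 0 in dKO. The ImCD8 change of -2.73 ± 0.58 (adjusted p = 0.00998, edgeR) lost its call without control ImCD8 replicate 1, the highest of the 3 controls (adjusted p = 0.0612), while the ImCD4 change of -3.62 ± 0.38 (adjusted p = 1.62e-05) held in every alternative fit. RP23-37J21.6 differed from these in that the populations had similar levels. It was at 2.78, 2.40 and 2.29 against 0.183, 0.386 and 0.107 CPM in ImCD4, and at 4.49, 2.05 and 1.55 against 0.120, 0.0929 and 0.435 in ImCD8. It fell in both (log2 change -3.57 ± 0.57, adjusted p = 0.00101 in ImCD8; -3.34 ± 0.56, adjusted p = 9.11e-04 in ImCD4, edgeR), and both calls held in every alternative fit.

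The Gm model among the shared transcripts with a fall in both tests was Gm9821, at chr2:91945703-91947655 on the + strand, inside the locus of Dgkz, a diacylglycerol kinase gene on the opposite strand. It averaged 5.39 ± 0.271 CPM in control and 1.78 ± 0.320 in dKO ImCD4, and 1.27 ± 0.683 against 0.358 ± 0.0783 in ImCD8. The fall in ImCD8 (log2 change -1.82 ± 0.46, adjusted p = 0.0275, edgeR) lost its call in 5 of 18 alternative fits, including those without control ImCD8 replicate 1 or 3 or without dKO ImCD8 replicate 1 or 2 (highest adjusted p = 0.151). RP23-350C1.3, at 1.15 ± 0.444 CPM in control ImCD4 and 1.09 ± 0.151 in control ImCD8, fell in ImCD8 (log2 change -3.70 ± 0.74, adjusted p = 0.00583) and in ImCD4 (-2.24 ± 0.57, adjusted p = 0.0166), the latter call being lost without control ImCD4 replicate 1 or dKO ImCD4 replicate 3 (highest adjusted p = 0.0904). RP23-296I6.8 and RP24-219P17.7 also passed in both tests, with log2 changes of -1.29 ± 0.35 and -1.48 ± 0.38 in ImCD8. These ImCD8 calls were lost in 10 and 5 of 18 alternative fits (highest adjusted p = 0.194 and 0.115). For each, these included the fit of the 6 ImCD8 libraries alone and fits without 1 library.

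Of the remaining shared transcripts, RP23-342N8.2 and RP23-472G22.1 passed the test in ImCD8 (log2 change -2.20 ± 0.58, adjusted p = 0.0324, and -2.27 ± 0.51, adjusted p = 0.0128, edgeR). Each lost this call in 4 of 18 alternative fits, among them fits without 1 ImCD8 library (highest adjusted p = 0.194 and 0.0981). They did not pass it in ImCD4 (adjusted p = 0.155 and 0.0835). In the ImCD4 test RP23-353F16.2, RP23-389F23.2, RP23-42O8.5 and RP24-225A16.7 passed (log2 changes of -0.99, -1.65, -1.70 and -1.31; adjusted p = 0.0475, 0.00779, 0.0253 and 0.0369, edgeR). The call of RP23-389F23.2 held in all 18 alternative fits. Those of RP23-353F16.2, RP23-42O8.5 and RP24-225A16.7 were lost in 9 of 18, 4 of 17 and 5 of 18. In ImCD8 these transcripts did not pass (adjusted p from 0.108 to 0.194). RP23-106G24.2 and RP24-271M20.8 passed in neither, and RP24-98O8.1 was below the filter on low counts. These last 3 had mean levels of 2.34 CPM or less in every group.

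Gm10801 was the one transcript that met the criteria in opposite directions. It was at 1.45, 1.49 and 1.64 CPM in control and 0.548, 0.483 and 1.2 in dKO ImCD4, and at 0.561, 0.137 and 0.725 in control and 1.08, 1.02 and 1.2 in dKO ImCD8. It lies at chr2:98662237-98664083, 1030570 bases from the nearest named gene, Lrrc4c, which had no count in these libraries. Neither change passed edgeR's test (adjusted p = 0.120 in ImCD4 and 0.211 in ImCD8).

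A group of transcripts that were higher in dKO ImCD4 was barely detected in ImCD8. RP23-263O6.1 was at 0.121, 0.114 and 0 CPM in control and 3.38, 3.48 and 2.47 in dKO ImCD4, and RP23-180A8.3 at 0.121, 0.343 and 0.109 and 4.29, 3.48 and 3.11. Both had 0 counts in all 6 ImCD8 libraries. RP24-549O22.3 had 0, 0.343 and 0.327 CPM in control and 5.12, 3.77 and 3.0 in dKO ImCD4, with 4 counts summed over the 3 libraries of each ImCD8 group. Its neighbour on the same clone, RP24-549O22.4, named here because of its values, had 0 counts in the 3 ImCD4 controls and 78 over the 3 dKO libraries, at least 22.2-fold higher if the controls are set at the floor of 3 counts over the group. It had 0 and 1 counts in ImCD8. RP24-68C1.5 was at 0.735 ± 0.472 and 3.89 ± 0.671 CPM in ImCD4, and had 0 counts in control and 7 in dKO ImCD8 (log2 change 4.31 ± 1.46, adjusted p = 0.107, edgeR). RP23-397A17.1 was at 1.67 ± 1.07 against 4.12 ± 1.26 CPM in ImCD4. It was more abundant in ImCD8, at 6.01 ± 0.467 against 9.51 ± 2.14 CPM, where its log2 change of 0.68 ± 0.30 did not pass the test (adjusted p = 0.239). Whether these changes differ between the populations was not tested, because the rule had chosen the transcripts on 1 of the 2.

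All 34 transcripts that were higher in dKO ImCD4 together came to 37.2, 40.4 and 36.5 CPM in control ImCD4 and 250.3, 224 and 238 CPM in dKO ImCD4, of which RP23-302C16.2 made up more than any other. By the higher group's level, 16 were under 2 CPM, 14 from 2 to 5 CPM and 4 at 5 CPM or more, and 9 differed 5-fold or more (median 2.36-fold).

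The 156 that were lower in dKO ImCD4 were mostly of low level and moderate difference. In the controls 90 were under 2 CPM, 53 from 2 to 5 CPM and 13 at 5 CPM or more, with a median of 46 counts over the 3 control libraries. The median difference was 2.50-fold, and 115 were under 3-fold. The highest was RP23-465M17.2, named here for its level, at 57.4, 56.7 and 72.1 CPM in control and 26.6, 29.6 and 32.4 in dKO ImCD4. In ImCD8 it was higher in both genotypes, at 126, 107 and 129 against 86.1, 100 and 107 CPM. The lowest control and the highest dKO library were nearly equal there, and the log2 change was -0.29 ± 0.11 (adjusted p = 0.137, edgeR). RP23-413G8.2 was at 16.8, 16.7 and 12.4 against 6.49, 3.67 and 4.18 CPM in ImCD4, and at 22.8, 23.0 and 22 against 10.7, 13.7 and 11.2 in ImCD8. It fell in the ImCD8 test (-0.92 ± 0.17, adjusted p = 0.00338, edgeR), a call that held in all 19 alternative fits. RP24-218K1.3, at 75.8 ± 1.01 against 53.7 ± 4.72 CPM in ImCD8, fell there by 0.48 ± 0.12 on the log2 scale (adjusted p = 0.0307), but not in any fit that left out 1 of 5 of the 6 ImCD8 libraries (highest adjusted p = 0.122). RP23-469H5.2, at 6.62 ± 0.969 against 3.60 ± 0.595 CPM, fell by 0.86 ± 0.22 (adjusted p = 0.0288), and lost the call when any of 5 of the 6 ImCD8 libraries was left out (highest adjusted p = 0.133). RP23-199B2.4 fell by 0.89 on the log2 scale in ImCD8 (adjusted p = 0.0468), a call lost in 10 of 19 alternative fits (highest adjusted p = 0.254).

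RP23-477C13.3, RP23-461P14.1 and RP24-359O2.7 were also among the 8 largest differences downward in ImCD4 for transcripts that reached 3 CPM in the control (3.10 ± 0.976 against 1.03 ± 0.457, 3.04 ± 0.869 against 1.0 ± 0.252 and 5.98 ± 1.84 against 2.08 ± 0.460 CPM). In ImCD8 their log2 changes of -0.07 ± 0.40, -0.80 ± 0.45 and -0.74 ± 0.35 did not pass the test (adjusted p = 0.962, 0.374 and 0.267, edgeR).

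These many low transcripts had been chosen as lower in dKO ImCD4, and the share of reads outside any annotated gene was lower in dKO ImCD4 too. That share was 16.4%, 14.6% and 13.6% of the tallied reads in control ImCD4 and 12.9%, 10.5% and 11.9% in dKO ImCD4, with no overlap. In ImCD8 it was 14.0%, 10.6% and 12.2% in control and 12.2%, 12.9% and 14.0% in dKO, with overlap. The 143 of the 156 whose control ImCD4 mean was under 5 CPM summed to 288, 276 and 261 CPM in control and 120.2, 95.1 and 105 in dKO ImCD4, and to 204, 146 and 163 in control and 94.9, 158 and 136 in dKO ImCD8. In control ImCD4, dKO ImCD4 and control ImCD8 the library with the largest share outside genes also had the largest sum of its group, and in dKO ImCD8 it did not. At a share of 14.0% the ImCD8 sums were 204 in control and 136 in dKO, and at 12.2% they were 163 and 94.9. The genotypes overlapped in ImCD8, however, with a sum of 146 in control replicate 2 and 158 in dKO replicate 2. Some of the 143, such as RP23-37J21.6, had also been chosen as lower in dKO ImCD8, so these sums are a description.

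**Figure D3:**
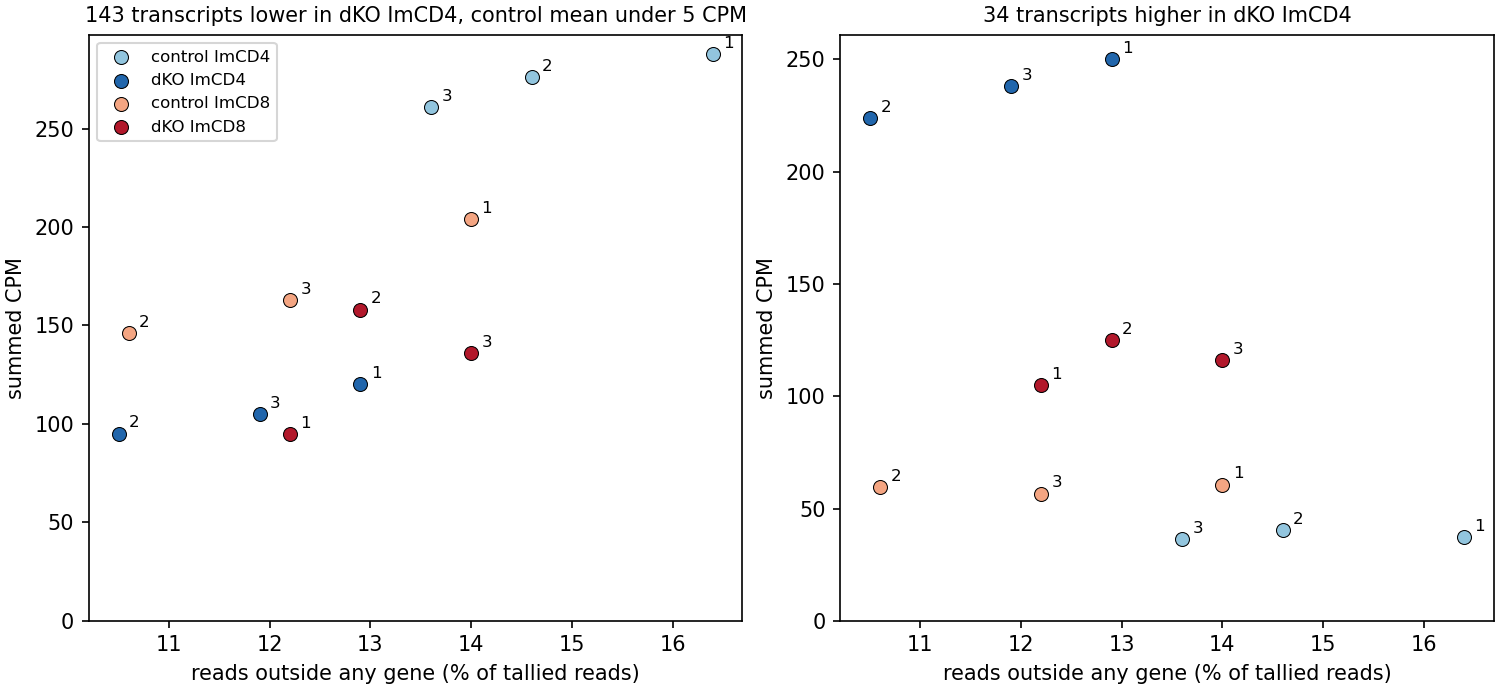
Summed CPM (y axis, from 0) of 143 transcripts lower in dKO ImCD4 with a control ImCD4 mean under 5 CPM (left) and of the 34 higher in dKO ImCD4 (right), against the percentage of tallied reads outside any gene (x axis), 1 point per library with its replicate number. On the left the control ImCD4 libraries, with the largest sums, also have 2 of the largest shares, 16.4% and 14.6%; on the right the dKO ImCD4 libraries have the largest sums at shares of 10.5% to 12.9%.

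Expressed relative to the reads outside genes in the same library, instead of to all gene counts, 49 of the 156 still met the criteria, including 6 of the 13 at 5 CPM or more, and 7 of the 13 that fell in ImCD8. All 34 higher transcripts still did. This scale was added after the data were seen. It moves the median log2 ratio of all genes in ImCD4 from -0.01 to 0.38, which by itself keeps higher transcripts within the criteria and takes lower ones out. On this scale 113 unnamed rows met the criteria upward in ImCD4 against 49 downward. Named rows shifted in the same way, to 416 upward and 112 downward from 142 and 273 by CPM. In ImCD8 it moves the median by less and downward, to -0.13, and 19 of 29 higher and all 41 lower transcripts still met the criteria. The numbers kept follow in part from these shifts, so they do not compare higher with lower transcripts. The part of the reads outside genes in the 156 differences was not tested.

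In ImCD8, RP23-284K1.6 had the largest difference. It was at 0.897, 0.957 and 1.14 CPM in control and 38.4, 44.1 and 98.0 in dKO ImCD8, 60.3-fold more, and dKO replicate 3 was at more than the sum of the other 2. In ImCD4 it was at 0.362, 0.114 and 0 CPM in control and 0.548, 0.386 and 0.751 in dKO, where the change did not pass the test (1.80 ± 1.32 on the log2 scale, adjusted p = 0.419, edgeR). The highest dKO ImCD4 library was thus below the lowest ImCD8 control. Among transcripts that reached 3 CPM in the higher group, the next largest differences upward in ImCD8 were those of the shared RP23-40C8.1, RP23-302C16.2 and AC122339.3. RP24-406I15.3, RP24-204J8.2, RP23-278I3.4 and RP23-173L24.3 differed 2.01-fold to 2.12-fold in ImCD8, with dKO means of 3.03 to 5.06 CPM, and their log2 changes in ImCD4 of -0.10 to 0.60 did not pass the test.

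The transcripts that were lower in dKO ImCD8 included some that ImCD4 libraries hardly contained. RP24-312B12.1 was at 5.50, 7.38 and 5.90 CPM in control and 0.720, 0.743 and 1.09 in dKO ImCD8, against 1 count in each ImCD4 control and 0 in each dKO ImCD4 library. RP23-433B5.1 was at 5.27, 6.15 and 6.11 CPM in control and 1.56, 1.02 and 2.61 in dKO ImCD8, with 1 count in all control and 3 in all dKO libraries of ImCD4. With so few counts in the ImCD4 controls, a fall was not detectable there at this depth (adjusted p = 0.137 and 0.630, edgeR). RP23-83I13.10 was present in both populations and differed in ImCD8, at 6.28, 4.65 and 7.25 against 1.2, 2.97 and 1.63 CPM. In ImCD4 it was at 3.71 ± 0.464 and 4.09 ± 0.701 CPM, a log2 change of 0.17 ± 0.27 (adjusted p = 0.730).

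RP23-307A6.1 was the most abundant of the 41. It was at 27.7, 30.2 and 30.9 CPM in control and 14.4, 14.8 and 13.7 in dKO ImCD8, and at 12.1, 13.7 and 11.8 against 9.14, 9.46 and 9.55 in ImCD4. Its fall of 0.39 ± 0.12 on the log2 scale in ImCD4 (adjusted p = 0.0458, edgeR) lost its call in 16 of 19 alternative fits (highest adjusted p = 0.172). AC155163.2, named here for its values, had 41 counts in the 3 control and 0 in the 3 dKO libraries of ImCD8, and 9 and 0 in ImCD4. With dKO at the floor of 3 counts over the group this was at least 14.7-fold lower in ImCD8 and at least 3.49-fold lower in ImCD4, and its ImCD4 change passed the test (adjusted p = 0.0245) but not in 6 of 17 alternative fits, 5 of which left out 1 ImCD4 library (highest adjusted p = 0.0996).

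The 2-fold limit fell within a continuous range. AC108424.1 (2.003-fold) and Gm26563 (2.005-fold) were just inside it in ImCD4 and RP24-326A21.3 and Gm17275 (both 1.993-fold) just outside. In ImCD8, RP24-64D24.4 (2.0-fold) and RP24-318O6.3 (2.007-fold) were just inside and AC114629.2 (1.972-fold) and RP24-144C5.3 (1.974-fold) just outside. Of the 239, 196 passed the filter on low counts used for testing and 43 did not.

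Clone names allow a limited look at position, since loci with the same clone name lie on 1 piece of genomic DNA. The 205 RP23 and RP24 names came from 198 clones, 7 of which gave 2 transcripts each. In 6 of these pairs both transcripts differed in the same direction in ImCD4. The criteria had chosen them there, and 156 of the 190 chosen in ImCD4 were lower. Many pairs would therefore share a direction whatever their position, and the count is a description only. Both loci of RP24-549O22 were higher (3.96 ± 1.07 and 2.54 ± 0.464 CPM in dKO), as were both of RP23-263O6 (3.11 ± 0.557 and 1.03 ± 0.326 CPM). In the pairs of RP23-296I6, RP23-370G17, RP24-271M20 and RP24-88B13 both were lower. On RP24-444I15 RP24-444I15.1 was chosen as lower in dKO ImCD4 (2.81 to 0.653 CPM) and RP24-444I15.2 as higher in dKO ImCD8 (0.648 to 1.57 CPM), but RP24-444I15.2 too had a lower mean in dKO ImCD4 (1.47 to 0.798 CPM). Loci of 1 clone can share a transcript or its reads, so they are not independent.

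For the 18 transcripts with a position, 14 overlapped a named gene and 17 lay within 10 kb of one. The nearest named gene was tested in the contrast that had chosen the transcript, and 4 of 17 passed, each in the same direction as its transcript, while the other 13 did not pass. Of all genes tested, 7.26% were called higher and 6.18% lower in ImCD4, the contrast for 13 of the 17, and 2.61% and 3.53% in ImCD8. The count was 3 without the 4 libraries that stood apart and 2 without control ImCD4 replicate 1. As the strand setting of the counting is not given, reads of a transcript and of an overlapping gene may be shared between them.

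Zfp608, which encodes a zinc finger protein, contains the Gm26742 locus (chr18:54981435-54987689, + strand) on its opposite strand. Gm26742 was at 2.66, 1.71 and 1.09 CPM in control and 0.274, 0.193 and 0.966 in dKO ImCD4, and Zfp608 at 14.5 ± 3.42 and 5.75 ± 0.829 CPM, a fall of 1.31 ± 0.24 on the log2 scale (adjusted p = 0.00192, edgeR). Zfp608 also fell in ImCD8 (3.69 ± 0.961 to 0.535 ± 0.355 CPM, adjusted p = 4.56e-04), where Gm26742 was at 0.311 CPM or less in every library. B130006D01Rik (chr11:95723587-95726710, + strand, annotated as protein coding) lies inside Zfp652, a zinc finger gene on the same strand. It was at 6.40, 5.48 and 4.91 CPM in control and 3.11, 2.61 and 1.72 in dKO ImCD4, and Zfp652 at 70.3 ± 2.22 and 49.0 ± 1.49 CPM, a fall of 0.50 ± 0.07 (adjusted p = 1.78e-04).

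4831440E17Rik (chr5:25499067-25501541, + strand) lies 283 bases from the start of Kmt2c, a histone H3 lysine 4 methyltransferase gene that is transcribed away from it on the - strand. The start that RefSeq gives for 4831440E17Rik, used for the promoter printed above, is inside the span given by GENCODE. It was at 1.91, 1.5 and 1.55 CPM in control and 0.240, 0.650 and 0.870 in dKO ImCD8. Kmt2c averaged 274 ± 29.1 and 213 ± 29.8 CPM there (log2 change -0.35 ± 0.10, adjusted p = 0.0437, edgeR), a call lost in 8 of 19 alternative fits, among them those without control ImCD8 replicate 1 or 3 (highest adjusted p = 0.170). In ImCD4 Kmt2c fell as well (234 ± 16.0 to 163 ± 7.28 CPM, adjusted p = 0.00341), whereas 4831440E17Rik was at 0.841 ± 0.143 and 0.838 ± 0.271 CPM. Gm26580 (chr1:21959842-21962530, + strand) overlaps the start of the potassium channel gene Kcnq5 on the opposite strand. Gm26580 was at 0.831 ± 0.302 and 1.92 ± 0.0935 CPM in ImCD4 and Kcnq5 at 2.44 ± 0.458 and 4.43 ± 0.438 CPM, a rise of 0.88 ± 0.23 (adjusted p = 0.0196) that lost its call without control ImCD4 replicate 1 or 3 or dKO ImCD4 replicate 3 (highest adjusted p = 0.140).

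Other neighbours differed little while the transcript differed. Dgkz, which overlaps Gm9821, was at 648 ± 67.2 and 641 ± 36.5 CPM in ImCD4 (log2 change 0.01 ± 0.08, adjusted p = 0.958, edgeR). Pdcd1lg2, which encodes the PD-1 ligand PD-L2, was at 7.97 ± 0.715 and 8.31 ± 0.271 CPM in ImCD4, while A930007I19Rik on its opposite strand (chr19:29464750-29523159) was at 2.07 ± 0.619 and 0.644 ± 0.187 CPM. Atg16l1, an autophagy gene, contains Gm25395 (chr1:87776938-87777209), annotated as a small Cajal body RNA, and was at 82.3 ± 11 and 77.9 ± 5.59 CPM while Gm25395 was at 1.0 ± 0.398 and 0.349 ± 0.252. Suz12 (with Gm26563) and Zmiz1 (with Gm26772) passed the test in ImCD8 (log2 changes of -0.37 ± 0.08 and 0.30 ± 0.08), the population that had not chosen those transcripts.

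**Figure D4:**
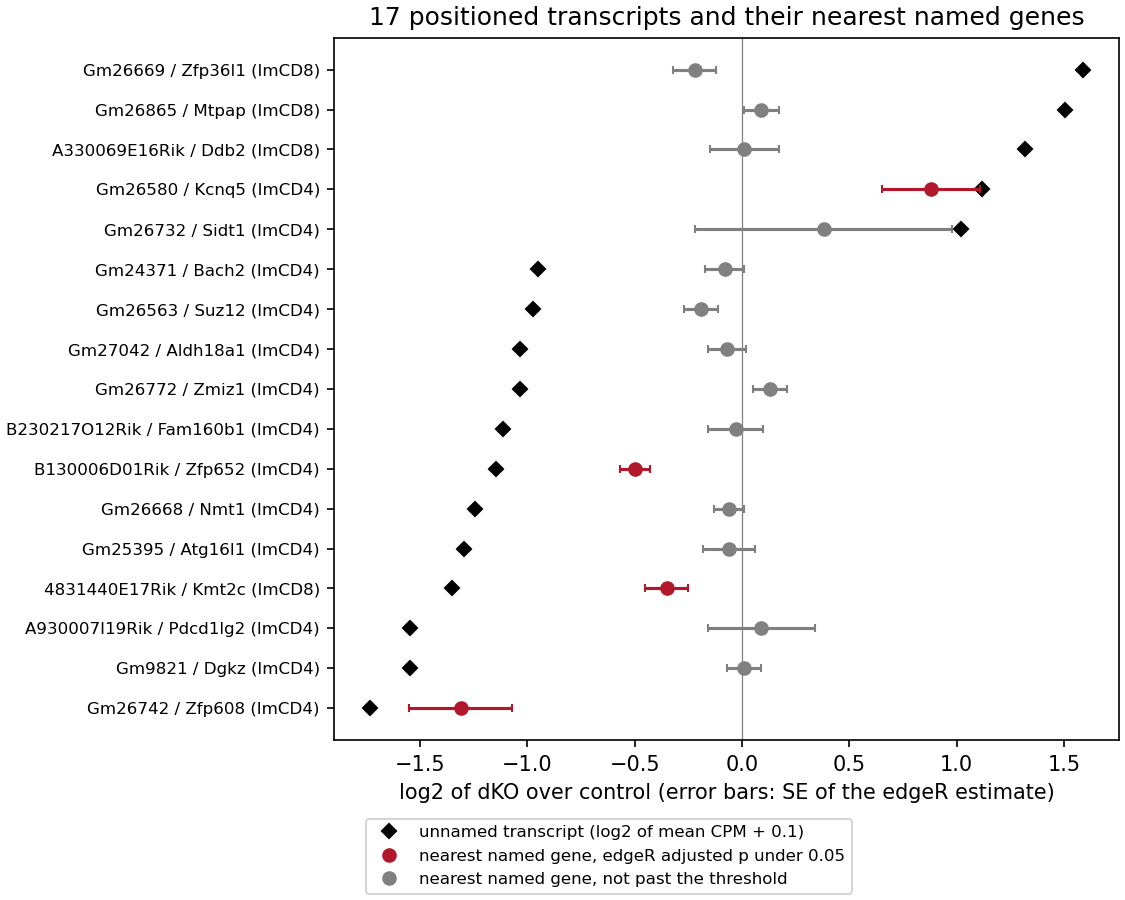
Log2 of dKO over control (x axis) for 17 unnamed transcripts (black diamonds, from mean CPM plus 0.1) and for the nearest named gene within 10 kb of each (circles with SE bars from edgeR), in the population given in parentheses. Red circles passed the test: Zfp608, Kmt2c and Zfp652 to the left of 0 with their transcripts and Kcnq5 to the right, while 13 grey circles did not.

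The edgeR test was also read for all 2557 unnamed rows that passed the filter. In ImCD4, 54 rose and 99 fell in dKO (2.11% and 3.87%), and the median log2 change was -0.09. In ImCD8, 25 rose and 28 fell (0.978% and 1.10%), with a median of 0.07. These shares were below those of all genes (7.26% and 6.18% in ImCD4, 2.61% and 3.53% in ImCD8). All unnamed rows together held 3.25% to 5.07% of the gene counts of a library, and a change is harder to call at few counts. The shares were not matched for level, so they do not show that unnamed rows differed less. The total of 153 in ImCD4 became 75 without control replicate 1 or without dKO replicate 2, 90 without control replicate 2 and 98 without dKO replicate 1 of ImCD4, and was 126 without the 4 libraries that stood apart. The total of 53 in ImCD8 became 30 without control replicate 1, 32 without control replicate 2 and 97 without dKO replicate 2 of ImCD8, and was 47 without the 4 libraries. With no filter on low counts the split in ImCD8 changed from 25 and 28 to 74 higher and 42 lower, and with DESeq2 to 32 and 26.

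Between the populations, averaged over the genotypes, 28 of the 196 tested (14.3%) were higher in ImCD8 and 42 (21.4%) higher in ImCD4. The shares were 29.2% and 28.4% of all genes, and 23.1% and 17.3% of the 2557 unnamed rows (591 and 443). The median of the 196 was -0.15. Most of the 239 were chosen with a minimum of 1 CPM in ImCD4 and no minimum in ImCD8, so this balance is a description that the choice itself affects. Some transcripts described above were near 0 in 1 population, where a fitted fold has no meaning: RP24-312B12.1 and RP23-433B5.1 in ImCD4, and RP23-180A8.3, RP23-263O6.1 and RP24-68C1.5 in ImCD8. AC139636.2 was higher in ImCD4 (-3.20 on the log2 scale), and RP24-218K1.3, lower in dKO ImCD4, was higher in ImCD8 in both genotypes (2.51).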

How the data were processed

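Gene counts of 12 mouse thymocyte libraries, 3 in each of 4 groups, were analysed. The tools of the authors, per the submitters' processing notes, were cutadapt 1.18, STAR 2.6.1 and HTSeq with mm10. Per the labels' protocols RNA came from an RNeasy Plus Micro kit and libraries were made with a SMARTer kit for low input. Annotation and strand mode were not given in the sources used here. The deposited values are raw read counts per gene symbol, without normalization, 7315833 to 10943143 per library. The 5 summary rows were left out of library totals and of every fit (reads outside genes were 10.5% to 16.4% of tallied reads).

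From these counts, CPM was computed as the count over the summed gene counts. The quasi-likelihood test of edgeR 4.0.16 (R 4.3.3) was fitted to all 12 libraries with 4 group means (8 residual degrees of freedom), TMM scaling and filterByExpr (minimum count 10, minimum total 15; 13383 genes kept), with two-sided p-values adjusted by Benjamini-Hochberg over all genes and a threshold of 0.05. The script was tested on simulated counts in which only genes of higher level were changed. That test does not cover the low counts of most transcripts described here. DESeq2 1.42.0, other scalings, other filters and left-out libraries were alternatives. An exact permutation of 3 against 3 libraries cannot go below 0.1, so none is given. The labels carry no replicate numbers, so those used here follow record order and only name libraries. No 2 libraries of a group agreed within counting noise (lowest chi-square per degree of freedom 3.84).

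The transcripts and lists were chosen with earlier results of these data known. A p-value in 1 population tests a transcript as chosen on the libraries of the other. Where both chose it, the values tested had a part in naming it, and its p-value is a description. Named transcripts are those meeting the criteria in both populations, up to 8 largest rises and falls of at least 3 CPM in each population, those nearest the fold limit, and those whose neighbour passed the test. Any other is named because of its values. Positions came from the GENCODE M21 annotation, matched by symbol.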

Additional observations from a re-analysis of the deposited data

Results flagged for a closer look

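Gm10801 was picked out because every library moved one way in ImCD4 and the other way in ImCD8. Its dKO mean was 0.484 times the control mean in ImCD4 and 2.32 times in ImCD8. This difference was not tested. With levels taken relative to the reads outside any gene, a scale added after the data were seen, no transcript met the criteria in opposite directions. That scale moves the median log2 ratio of all genes in ImCD4 from -0.01 to 0.38. By itself this takes a fall as near the limit as that of Gm10801 (2.07-fold) out of the criteria, so the loss cannot decide whether the directions differ.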

How the results depend on the processing

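The number of transcripts depends on the criteria. The 190 of ImCD4 became 52 with a 3-fold minimum and 84 with a mean of 2 CPM, and the 70 of ImCD8 became 23 and 30. Leaving out 1 library gave 211 to 296 and 86 to 133, and leaving out the 4 libraries that stood apart gave 316 and 117, since fewer libraries make non-overlap easier to meet. With only the 6 libraries compared, the 16 calls in ImCD8 of transcripts chosen in ImCD4 became 8 and the 53 unnamed rows called in ImCD8 became 29. With a filter of over 5 CPM, which tests fewer genes, the 16 calls in ImCD4 of transcripts chosen in ImCD8 became 7, the 153 unnamed rows called in ImCD4 became 84 and the 70 that differed between populations became 20. With no filter the 53 became 116. Leaving out 1 library gave 9 to 16 and 10 to 16 calls in the other population, 75 to 170 and 30 to 97 unnamed rows, 2 to 4 neighbours and 57 to 74 differences between populations; the cause was not tested. Zfp148 and Zfp281 passed in all 19 alternatives. No log2 change that had passed the test changed sign in these fits. No paired analysis was possible because the labels number the libraries 1 to 12 and give no replicate number that groups share. Most transcripts rest on few reads (median 46 counts over 3 libraries for the 156 lower in ImCD4), so a test not passed does not show equal levels.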
